A study of Mus musculus with 4 samples.

Results

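Insulin signalling and glucose uptake genes were followed in single nuclei of mouse adipose tissue: Insr, Irs1, Irs2, Pik3r1, Akt2, Foxo1, Tbc1d4, Slc2a4, Pck1 and Hk2. They were chosen by name as 10 of the 32285 genes in the count tables, and each symbol matched 1 gene. The mice were on a high-fat diet and had a sham operation or surgery, which is bariatric by the study's title. Nuclei came from tissue labelled brown (BAT) or beige (BeAT), so that there are 4 groups with 1 library each. The type of operation, the strain, age and number of mice and the depot taken as beige were not given in the sources used here. With 1 library per group there is no replicate check and no test of a condition, and surgery cannot be told apart from any other difference between libraries. All intervals are 95% intervals that cover counting error only.

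Insulin binds the insulin receptor, which phosphorylates the insulin receptor substrates. These recruit phosphoinositide 3-kinase (PI3K), whose lipid product brings the kinase AKT to the membrane. In adipocytes AKT phosphorylates TBC1D4, a brake on the vesicles that carry the glucose transporter GLUT4 to the cell surface, and FOXO1, a transcription factor that leaves the nucleus when phosphorylated. Counts of nuclear RNA measure transcripts and say nothing of phosphorylation or of where a protein is.

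After filters the shams held 9791 (BAT) and 9760 (BeAT) nuclei and the surgery libraries 9159 (BAT) and 5328 (BeAT). The tables held 23118695 to 60409801 UMIs per library, the tags that count single molecules. Barcodes shared between libraries numbered 36 to 73 per pair, at most 0.706% of the smaller library. Nuclei were clustered and named from marker genes. Adipocyte-like nuclei numbered 4075 and 4813 in the shams and 569 and 489 in the surgery libraries, and all 11 adipocyte markers were found in each library. Ucp1, which encodes the uncoupling protein that makes brown and beige fat produce heat, had at most 3 UMIs in the adipocyte-like nuclei of a library. It thus bears out neither tissue label, and the labels rest on the submitters' word. The adipocyte-like class held 3 clusters that the libraries shared unevenly. Cluster 1 held 61.1% of the BAT sham and 80.6% of the BeAT sham nuclei, cluster 18 held 91.2% of BAT surgery and cluster 2 held 67.7% of BeAT surgery. BAT surgery also stood apart by its epithelial-like nuclei, 62.0% of the library, against 0.582% of the BAT sham. Whether libraries with the same tissue label come from the same depot was not tested. Gpx5, an epididymal epithelial gene, stood at 577 CPM (counts-per-million, the gene's UMIs scaled by all UMIs of the class) in its adipocyte-like nuclei and at 4783 CPM in its epithelial-like nuclei, and had 0 UMIs in adipocyte-like nuclei of the other libraries.

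Across the adipocyte-like nuclei Pik3r1, Foxo1 and Tbc1d4 were higher and Slc2a4 was lower in both surgery libraries than in the sham of the same tissue label. Pck1 was lower in BAT surgery and not in BeAT surgery. Irs2 was higher in BeAT surgery and not in BAT surgery. A gene was counted as higher or lower at a ratio of 2-fold or more, with at least 50 UMIs in both libraries together and an interval that excluded 1. By that rule 3 of the 10 members were higher and 2 lower in BAT surgery against BAT sham, where 5.34% of the 13040 genes measured were higher and 12.0% lower. In BeAT surgery against BeAT sham 4 members were higher and 1 lower, where 4.44% of 12489 genes were higher and 15.1% lower. The median log2 ratio of the 10 members was 0.10 for BAT and 0.63 for BeAT, and that of all genes measured was -0.07 and -0.09.

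**Figure D1:**
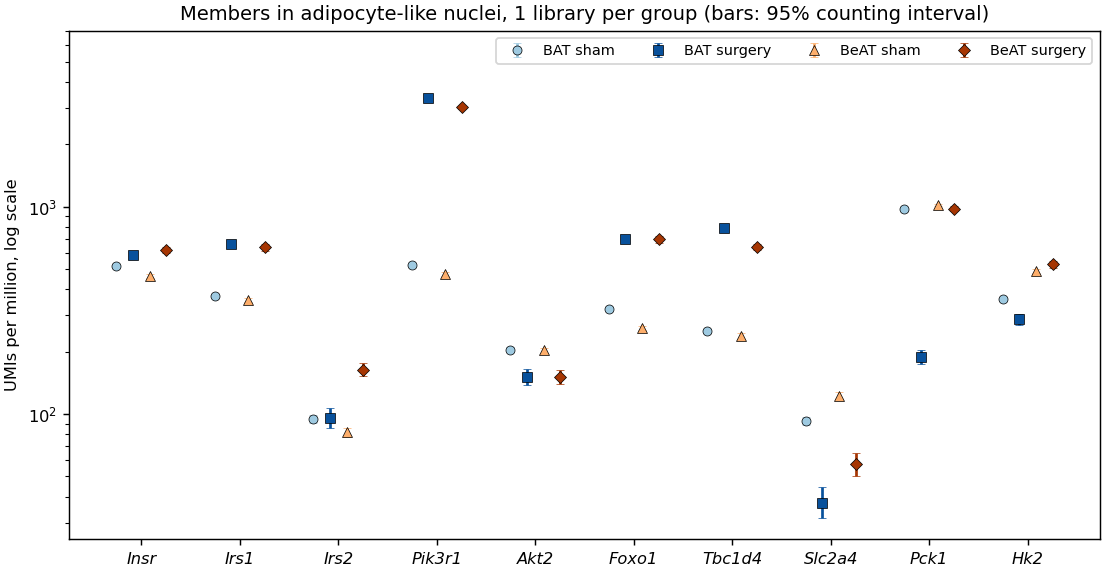
Level of each member in adipocyte-like nuclei, in CPM on a log axis, with 1 symbol per library and 95% counting intervals as bars. Pik3r1 stands at 523 and 472 in the shams and at 3355 and 3013 in the surgery libraries, while Pck1 is low in BAT surgery alone, at 189.

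Insr (ENSMUSG00000005534, chr8:3122061-3279617, minus strand; GENCODE M21, GRCm38, as for the positions of the other genes) encodes the insulin receptor itself. Its level in adipocyte-like nuclei was 516 CPM in the BAT sham and 464 in the BeAT sham, and 585 in BAT surgery and 618 in BeAT surgery. Both surgery libraries were above both shams, with ratios of 1.13 (1.08 to 1.19) for BAT and 1.33 (1.27 to 1.39) for BeAT. Nuclear RNA holds introns, so ratios were also read against genes of like span, the length of a gene in the genome. The span median was a log2 ratio of 0.17 for BAT and 0.36 for BeAT, which left Insr 0.01 and 0.05 above it.

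Irs1 (ENSMUSG00000055980, chr1:82233101-82291416, minus strand) and Irs2 (ENSMUSG00000038894, chr8:10984681-11008458, minus strand) encode the substrates that dock PI3K to the receptor. Irs1 stood at 372 and 355 CPM in the BAT and BeAT shams and at 663 and 635 in BAT and BeAT surgery. The surgery libraries lay together above the shams, at 1.78-fold (1.70 to 1.86) and 1.79-fold (1.71 to 1.87), under the 2-fold rule in both. Irs2 stood at 94.6 and 81.6 CPM in the BAT and BeAT shams, at 95.9 in BAT surgery and at 163.8 in BeAT surgery. BeAT surgery alone was high, at 2.01-fold (1.83 to 2.19) over its sham, and the BAT ratio was 1.01 (0.90 to 1.14). The BeAT value lies at the edge of the rule. It fell short of it with median-of-ratios scaling (log2 0.99), with nuclei thinned to 1000 UMIs (0.62), within cluster 2 (0.65) and against the BAT sham (0.79). An antisense transcript, 9530052E02Rik, overlaps Irs2 over 0.609 kb and had 60 to 251 UMIs per library. As the use of strand in the counting is not stated, reads over the overlap cannot be assigned. Among the other members, Pik3r1, Foxo1 and Tbc1d4 overlap genes on the same strand that were not counted. These overlaps are 2.169 and 0.4 kb for Pik3r1, 2.069 kb for Foxo1 and 0.487 kb for Tbc1d4, and their part in the levels was not tested. Irs3, a further substrate gene of rodents, was lower in both surgery libraries, at 17.7 and 19.1 CPM against 38.9 and 48.2 in the shams. It is a short gene, and genes of like span had median log2 ratios of -0.70 for BAT and -1.32 for BeAT, which left Irs3 at -0.43 and -0.01, neither past the rule. Irs4 had 0 UMIs in all 4 libraries.

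The 250 bases before the Irs2 start site (chr8:11008930-11009179, minus strand, GRCm38.p6, RefSeq) are shown because Irs2 is a textbook target of FOXO1 and the window holds matches to 2 of the motifs searched. The capitals mark, from 5′ to 3′, an E-box at position -44 and an insulin response match at -37, counted from the start site.
Irs2: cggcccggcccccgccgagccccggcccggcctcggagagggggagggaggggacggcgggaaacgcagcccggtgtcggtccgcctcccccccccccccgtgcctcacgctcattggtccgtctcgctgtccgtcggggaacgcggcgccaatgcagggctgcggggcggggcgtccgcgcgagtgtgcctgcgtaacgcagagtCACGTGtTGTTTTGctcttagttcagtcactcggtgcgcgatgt
The motifs searched, on both strands, were the FOXO motif TGTTTAC, the insulin response match TGTTTTG, the E-box CACGTG, the cyclic AMP response element TGACGTCA and its variant TTACGTCA. They stood in 3.17%, 5.56%, 6.02%, 1.55% and 0.447% of the 32851 mouse promoter windows, each read over the 250 bases before the start. RefSeq windows were matched for 8 of the 10 members. The window of Irs1 held an E-box at -115 that overlaps an insulin response match at -111, and a further insulin response match at -32.

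Pik3r1 (ENSMUSG00000041417, chr13:101680563-101768217, minus strand) encodes p85 alpha, the main regulatory subunit of PI3K, and shorter subunits made from internal start sites. Its level was 523 CPM in the BAT sham and 472 in the BeAT sham, and 3355 in BAT surgery and 3013 in BeAT surgery. The shams lay together, and so did the surgery libraries, with a wide gap between them. The ratio was 6.42 (6.26 to 6.58) for BAT and 6.39 (6.22 to 6.56) for BeAT. The median adipocyte-like nucleus held 4.26 and 3.68 Pik3r1 UMIs per 10000 in the shams and 32.2 and 27.3 in the surgery libraries. Its middle range, from the 25th to the 75th percentile, was 1.86 to 7.39 in the BAT sham and 21.3 to 42.9 in BAT surgery, and these ranges did not overlap. At an equal depth of 1000 UMIs per nucleus, Pik3r1 was found in 39.2% and 35.6% of sham nuclei and in 92.3% and 92.2% of surgery nuclei. Without thinning the shares were 83.3% and 73.6% in the shams and 97.7% and 99.4% after surgery. Under the alternatives tried the log2 ratio ranged from 2.45 to 2.83 for BAT and from 2.38 to 2.70 for BeAT. Within cluster 2, which held BeAT nuclei of both kinds, it was 2.62.

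RefSeq gives Pik3r1 an upstream start site (window chr13:101768218-101768467, minus strand, GRCm38.p6) and an internal one (window chr13:101692631-101692880, minus strand). The windows are shown because Pik3r1 had the largest ratio of the members and because counts summed over the gene cannot say which start was used. Neither window held any of the 5 motifs, so there are no capitals.
Pik3r1 upstream start: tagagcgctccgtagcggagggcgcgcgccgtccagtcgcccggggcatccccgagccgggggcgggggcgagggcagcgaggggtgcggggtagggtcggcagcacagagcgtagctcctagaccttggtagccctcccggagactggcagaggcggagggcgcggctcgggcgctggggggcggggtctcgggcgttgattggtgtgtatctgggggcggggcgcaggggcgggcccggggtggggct
Pik3r1 internal start: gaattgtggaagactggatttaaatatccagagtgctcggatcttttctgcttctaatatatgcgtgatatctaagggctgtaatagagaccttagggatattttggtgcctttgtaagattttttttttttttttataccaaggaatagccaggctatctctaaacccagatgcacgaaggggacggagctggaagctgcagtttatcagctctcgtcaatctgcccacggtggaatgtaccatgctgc

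Akt2 (ENSMUSG00000004056, chr7:27591552-27640826, plus strand) encodes the AKT form that carries most of the insulin signal to glucose uptake in adipocytes. It stood at 204 and 202 CPM in the BAT and BeAT shams and at 151 and 150.3 in BAT and BeAT surgery. Both surgery libraries were low, with ratios of 0.742 (0.678 to 0.811) and 0.742 (0.682 to 0.806). Genes of like span lay on the other side, with median log2 ratios of 0.14 and 0.12 next to -0.43 and -0.43 for Akt2.

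Foxo1 (ENSMUSG00000044167, chr3:52268336-52353221, plus strand) encodes the transcription factor that AKT keeps out of the nucleus. Its level was 321 CPM in the BAT sham and 260 in the BeAT sham, and 696 in BAT surgery and 695 in BeAT surgery. The surgery libraries stood at the same level, 2.17-fold (2.07 to 2.27) above the BAT sham and 2.67-fold (2.55 to 2.80) above the BeAT sham. With the span median taken off the log2 ratio was 0.88 for BAT, below the rule, and 1.12 for BeAT. At 1000 UMIs per nucleus a Foxo1 UMI was found in 24.7% and 21.4% of sham and 49.7% and 45.5% of surgery nuclei, next to 69.7% and 53.6%, and 86.1% and 92.4%, without thinning.

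Tbc1d4 (ENSMUSG00000033083, chr14:101442360-101609191, minus strand), also known as AS160, is the AKT substrate that holds GLUT4 vesicles inside the cell. It was at 252 and 238 CPM in the BAT and BeAT shams and at 790 and 639 in BAT and BeAT surgery. Both surgery libraries were high, at 3.14-fold (3.002 to 3.282) and 2.69-fold (2.56 to 2.82) over their shams. With the span median taken off the log2 ratios were 1.48 and 1.06.

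Slc2a4 (ENSMUSG00000018566, chr11:69942539-69948188, minus strand) encodes GLUT4, the insulin-responsive glucose transporter of fat and muscle. It was at 92.5 and 122.3 CPM in the BAT and BeAT shams and at 37.4 and 57.2 in BAT and BeAT surgery. Both surgery libraries lay below both shams, on the other side of sham from Tbc1d4. Slc2a4 was 2.47-fold lower for BAT (ratio 0.405, 0.338 to 0.482) and 2.14-fold lower for BeAT (ratio 0.467, 0.408 to 0.533). It spans only 5.65 kb, and short genes were low as a group in these comparisons: genes of like span had median log2 ratios of -0.45 for BAT and -0.78 for BeAT. Relative to those medians Slc2a4 was at -0.85 and -0.32, neither past the 2-fold rule. The BeAT value also missed the rule with the mean of per-nucleus shares (log2 -0.97), within cluster 2 (-0.92) and against the BAT sham (-0.69). Adipoq, the adiponectin gene of adipocytes, was also at a lower level after surgery, at 574.5 and 815.9 CPM in the shams and 323.8 and 292.3 in the surgery libraries.

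Pck1 (ENSMUSG00000027513, chr2:173153048-173159273, plus strand) encodes the cytosolic phosphoenolpyruvate carboxykinase, which in fat makes glycerol 3-phosphate for triglyceride and whose gene insulin represses. The levels were 978 CPM in the BAT sham, 1018 in the BeAT sham and 978 in BeAT surgery, and 189 in BAT surgery. BAT surgery stood alone, 5.17-fold below the BAT sham (ratio 0.193, 0.179 to 0.209), while BeAT surgery was at 0.960 of its sham (0.929 to 0.993). BAT surgery was as far below BeAT surgery, at a ratio of 0.193 (0.178 to 0.210). Cluster 18 held 91.2% of the adipocyte-like nuclei of BAT surgery, but only 1 nucleus of the BAT sham and 3 of BeAT surgery. Neither ratio of BAT surgery could therefore be read within 1 cluster. Pck1 spans 6.23 kb, and against genes of like span its log2 ratio was -1.92 for BAT and 0.72 for BeAT. At 1000 UMIs per nucleus a Pck1 UMI was found in 54.1% and 53.9% of sham nuclei, 17.3% of BAT surgery and 49.7% of BeAT surgery nuclei, next to 87.9%, 81.8%, 43.6% and 89.4% without thinning. In endothelial-like nuclei, which should lack Pck1, the thinned shares were 14.1% and 18.6% in the shams and 0.694% and 3.06% in BAT and BeAT surgery. Median depth before thinning was 4135 to 8813 UMIs in adipocyte-like and 1898.5 to 2461 in endothelial-like nuclei.

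The window before the Pck1 start site (chr2:173152823-173153072, plus strand, GRCm38.p6, RefSeq) is shown because Pck1 set the surgery libraries apart. The capitals mark a match to the cyclic AMP response element variant at position -93.
Pck1: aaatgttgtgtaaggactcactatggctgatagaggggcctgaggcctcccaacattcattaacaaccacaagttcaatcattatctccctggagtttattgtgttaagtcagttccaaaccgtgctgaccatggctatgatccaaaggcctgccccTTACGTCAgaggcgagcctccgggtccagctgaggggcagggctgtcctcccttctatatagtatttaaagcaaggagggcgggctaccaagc
The windows of Foxo1, Tbc1d4, Akt2 and Hk2 held none of the 5 motifs.

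Hk2 (ENSMUSG00000000628, chr6:82725025-82774454, minus strand) encodes hexokinase 2, which traps glucose inside the cell as glucose 6-phosphate. It was at 358.5 CPM in the BAT sham, 489 in the BeAT sham, 286 in BAT surgery and 527 in BeAT surgery. For BAT, surgery was lower at 0.798 of sham (0.748 to 0.851), and for BeAT it was 1.08-fold higher (1.03 to 1.13), both short of the rule. With the span median taken off the log2 ratios were -0.50 and -0.01, neither above 0. The BeAT libraries were above the BAT libraries in each treatment. The BAT sham stood at 0.733 of the BeAT sham (0.713 to 0.755) and BAT surgery at 0.543 of BeAT surgery (0.504 to 0.585).

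**Figure D2:**
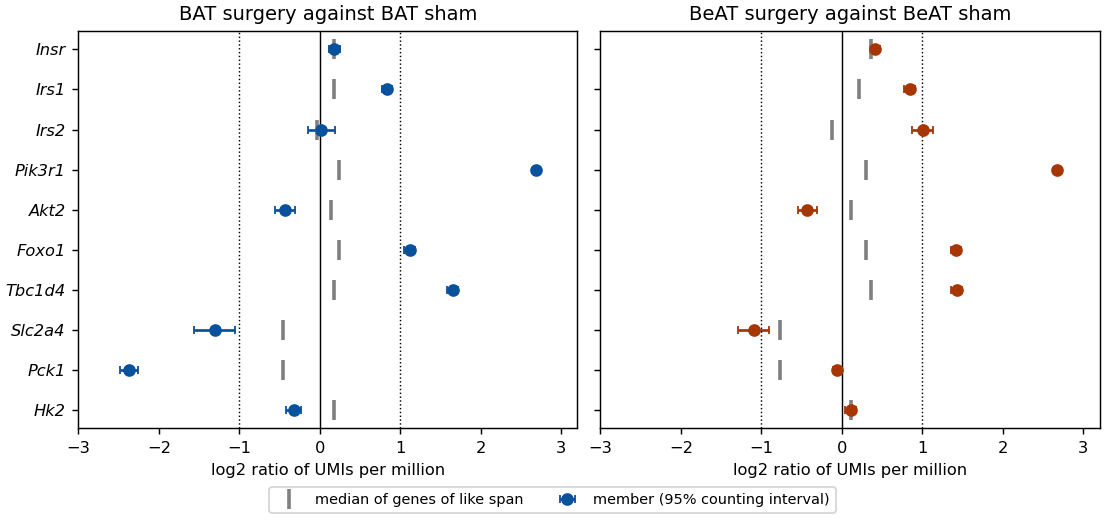
Surgery against sham in adipocyte-like nuclei as log2 ratios of CPM, with 95% counting intervals as bars, grey ticks for the median of genes of like genomic span and dotted lines at 2-fold. Pik3r1 lies at 2.68 and 2.67, far right of its ticks in both panels, and Pck1 is at -2.37 in the BAT panel and at -0.06 in the BeAT panel.

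Between the tissue labels no member passed the 2-fold rule in the shams, where 1.79% of 13931 genes were higher and 1.07% lower in BAT. The sham ratios of the 10 members lay between 0.733 for Hk2 and 1.24 for Foxo1. Between the surgery libraries Pck1 was the 1 member counted, as lower in BAT surgery, where 4.50% of 9572 genes were higher and 3.58% lower. The next in size were Hk2 at 0.543 and Irs2 at 0.586 (0.513 to 0.667).

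A wider list of 63 pathway genes was read beside the members. For BAT 7 of 59 measured genes were higher after surgery and 4 lower, and for BeAT 8 of 58 were higher and 2 lower. Over all genes measured 5.34% were higher and 12.0% lower for BAT, and 4.44% and 15.1% for BeAT, and the counts by role are read against the same shares. The list's median log2 ratio was 0.28 and 0.37, next to -0.07 and -0.09 over all genes measured. Unlike those of the members, the ratios of the list genes and these medians are given without a reading against genes of like span. At the receptor 1 of 12 measured genes was higher and 1 lower for BAT, and 2 were higher and 1 lower for BeAT. Grb14, an adaptor that inhibits the activated insulin receptor, was lower in both. It stood at 632 and 653 CPM in the BAT and BeAT shams, at 60.2 in BAT surgery (10.5-fold lower, 9.19 to 12.1) and at 236 in BeAT surgery (2.76-fold lower, 2.59 to 2.95). Sh2b2, the adaptor APS that binds the activated receptor, was higher in both, from 71.0 to 213 CPM for BAT and from 70.9 to 169 for BeAT. Igf1r, the related receptor for insulin-like growth factor, was counted for BeAT at 2.20-fold and stood at 1.84-fold for BAT.

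Among the PI3K and AKT genes, Inpp4b, a phosphatase that acts on a PI3K product, was higher by 4.32-fold and 6.42-fold for BAT and BeAT. Trib3, a pseudokinase that binds AKT, was lower on only 5 and 7 UMIs in the surgery libraries. Pik3r2 and Pik3r3, which encode the other regulatory subunits nearest in role to Pik3r1, had ratios of 0.883 and 1.67 for BAT and 0.675 and 1.51 for BeAT. The catalytic subunit gene Pik3ca had ratios of 1.68 and 1.49. None of these 3 genes passed the rule, and they are named for their role beside Pik3r1.

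Of the effectors 2 of 17 measured genes were higher for BAT and 2 of 16 for BeAT, with none lower. They were Foxo3, a relative of Foxo1, at 2.01-fold and 2.13-fold, and Tbc1d1, a relative of Tbc1d4, at 2.36-fold and 2.28-fold. Of the glucose genes, Slc2a3, which encodes the transporter GLUT3, was higher by 3.03-fold and 2.45-fold, on the other side of sham from Slc2a4. Pfkp, a phosphofructokinase gene of glycolysis, was higher by 2.45-fold and 2.21-fold, and Pcx, the pyruvate carboxylase gene, by 2.29-fold and 2.43-fold. Hk1, on 10 UMIs in BAT surgery, and Txnip were counted as lower for BAT. Txnip, whose product restrains glucose uptake, stood at 366 and 522 CPM in the BAT and BeAT shams and at 119 and 341 in BAT and BeAT surgery. Between the shams 0 of 61 list genes passed the rule, where 1.79% of all genes measured were higher and 1.07% lower in BAT. Between the surgery libraries, of 54 measured, Ptprf was higher and Grb14 and Txnip lower in BAT surgery. There 4.50% of all genes measured were higher and 3.58% lower, so these counts are not read as a result about the list.

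Acaca encodes acetyl-CoA carboxylase 1, which commits acetyl-CoA to fatty acid synthesis. In adipocyte-like nuclei it stood at 1486 and 1552 CPM in the BAT and BeAT shams and at 6985 and 7429 in BAT and BeAT surgery. Nuclei with at least 20 Acaca UMIs per 10000 were taken as Acaca-high and the rest as Acaca-low, a range and not a cell type. The high set held 845 nuclei of the BAT sham (20.7%), 1089 of the BeAT sham (22.6%), 442 of BAT surgery (77.7%) and 413 of BeAT surgery (84.5%). Between 9.20% and 14.7% of the nuclei lay within 5 units of the limit. Median depth was 6036 and 5832 UMIs for the high and low sets of the BAT sham and 4313 and 4069 in the BeAT sham. It was 6646.5 and 5683 in BAT surgery and 8992 and 8085 in BeAT surgery, so the high set was the deeper one in each library.

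Within a library none of the 10 members passed the 2-fold rule between Acaca-high and Acaca-low nuclei. Over all genes measured the shares higher and lower in the high set were 0.717% and 1.40% in the BAT sham and 0.529% and 0.942% in the BeAT sham. They were 1.39% and 1.79% in BAT surgery and 3.14% and 2.44% in BeAT surgery. Of the wider list, 0 genes were higher and 3 lower of 59 in the BAT sham, and 1 and 3 of 58 in the BeAT sham. The counts were 1 and 1 of 48 in BAT surgery and 1 and 0 of 48 in BeAT surgery. Grb14 was among the lower genes in the BAT sham and in BAT surgery. In the shams the members' ratios lay between 0.749 for Pck1 and 1.20 for Pik3r1. Pck1 was lower in the Acaca-high set of both shams, at 862 against 1009 CPM in BAT and 810 against 1081 in BeAT. In BAT surgery it was at 175 against 245 CPM, a ratio of 0.715 (0.601 to 0.855), and in BeAT surgery at 978 against 976. The BAT surgery difference was not seen under each setting: its log2 ratio of -0.48 was -0.06 with nuclei thinned to 1000 UMIs and 0.01 with the sets formed from whole clusters by their Acaca level.

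Tbc1d4 was at 852 CPM in Acaca-high and 533 in Acaca-low nuclei of BAT surgery, a ratio of 1.60 (1.43 to 1.79), and with the sets formed from whole clusters the log2 ratio was 0.12 in place of 0.68. In BeAT surgery it was at 643 and 616, a ratio of 1.04 (0.934 to 1.17). Hk2 lay on opposite sides, at 308 and 196 CPM in BAT surgery (ratio 1.58, 1.32 to 1.90) and at 498 and 711 in BeAT surgery (ratio 0.700, 0.629 to 0.782). Pik3r1 did so too, at 3470 and 2881 CPM in BAT surgery (ratio 1.20, 1.15 to 1.26) and 2919 and 3619 in BeAT surgery (ratio 0.807, 0.770 to 0.846). With nuclei thinned to 1000 UMIs before the sets were formed, the log2 ratio of Pik3r1 in BeAT surgery was 0.09 in place of -0.31. The Acaca-low set of that library holds 76 nuclei.

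Insr was at 571 against 501 CPM in the BAT sham, 503 against 452 in the BeAT sham and 600 against 522 in BAT surgery, and at 609 against 675 in BeAT surgery, where the ratio's interval of 0.810 to 1.01 held 1. Irs1 was higher in the Acaca-high set of all 4 libraries, by 1.08-fold to 1.22-fold. With the sets formed from whole clusters, which could be done in BAT surgery alone, the log2 ratio there was -0.11 in place of 0.21 for Irs1 and -0.29 in place of 0.20 for Insr. Irs2 was lower in it in both shams and in BeAT surgery, at 0.834, 0.763 and 0.715, and the interval in BAT surgery, 0.700 to 1.19, held 1. With nuclei thinned to 1000 UMIs the log2 ratio of Irs2 in BeAT surgery was 0.93 in place of -0.48, on the other side of 0. For Akt2 and Slc2a4 the interval held 1 in every library. Foxo1 stood at 0.919 (0.870 to 0.971) in the BAT sham, where a limit of 40 Acaca UMIs put its log2 ratio at 0.06 in place of -0.12, and its interval held 1 in the other libraries.

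**Figure D3:**
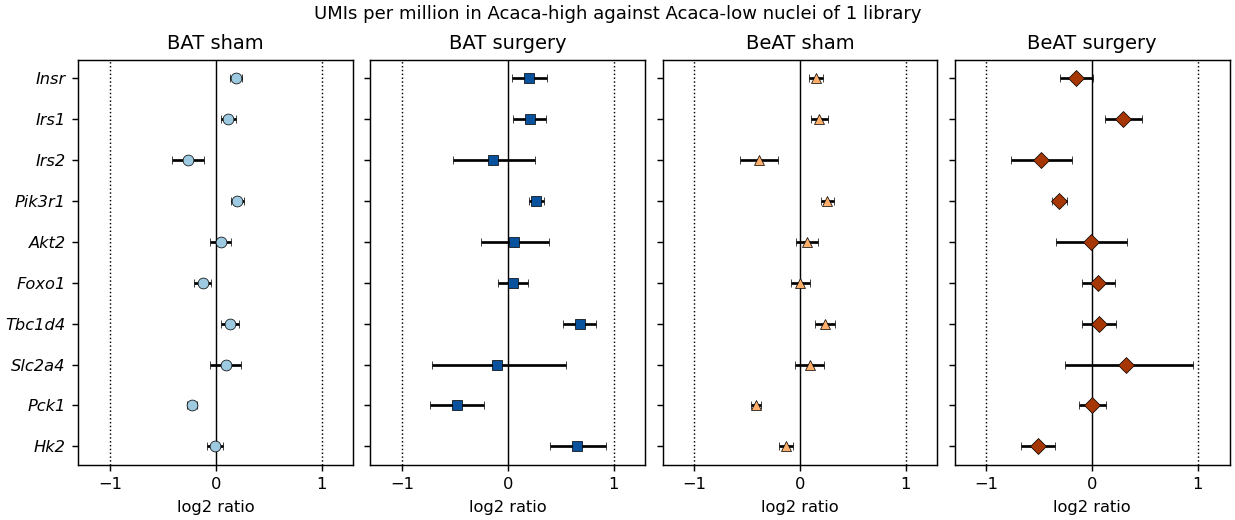
Acaca-high against Acaca-low nuclei within each library, as log2 ratios of CPM with 95% counting intervals as bars and dotted lines at 2-fold. No member's point reaches a dotted line, and Hk2 lies right of 0 in BAT surgery and left of 0 in BeAT surgery.

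Surgery against sham within 1 Acaca set gave the same members as the whole class, of which each set is a part. Shares over all genes are not given for these sets, so the match is a description only. In both sets Pik3r1, Foxo1 and Tbc1d4 were higher and Slc2a4 and Pck1 lower for BAT, and Irs2, Pik3r1, Foxo1 and Tbc1d4 were higher and Slc2a4 lower for BeAT. Pik3r1 was 5.95-fold (BAT) and 5.40-fold (BeAT) above sham in Acaca-high nuclei, and 5.69-fold and 8.02-fold above sham in Acaca-low nuclei. Acaca-low nuclei of the surgery libraries held Pik3r1 at 2881 and 3619 CPM, with Acaca at 1019 and 1212 CPM. Acaca-high nuclei of the shams held Pik3r1 at 584 and 540 CPM, with Acaca at 4252 and 4154. The sham nuclei with more Acaca thus had less Pik3r1 than the surgery nuclei with less Acaca. Pck1 was at 0.203 of sham in Acaca-high and 0.243 in Acaca-low nuclei for BAT, and at 1.21 and 0.902 for BeAT. Slc2a4 rests on 28 and 27 UMIs in the Acaca-low sets of BAT and BeAT surgery.

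**Figure D4:**
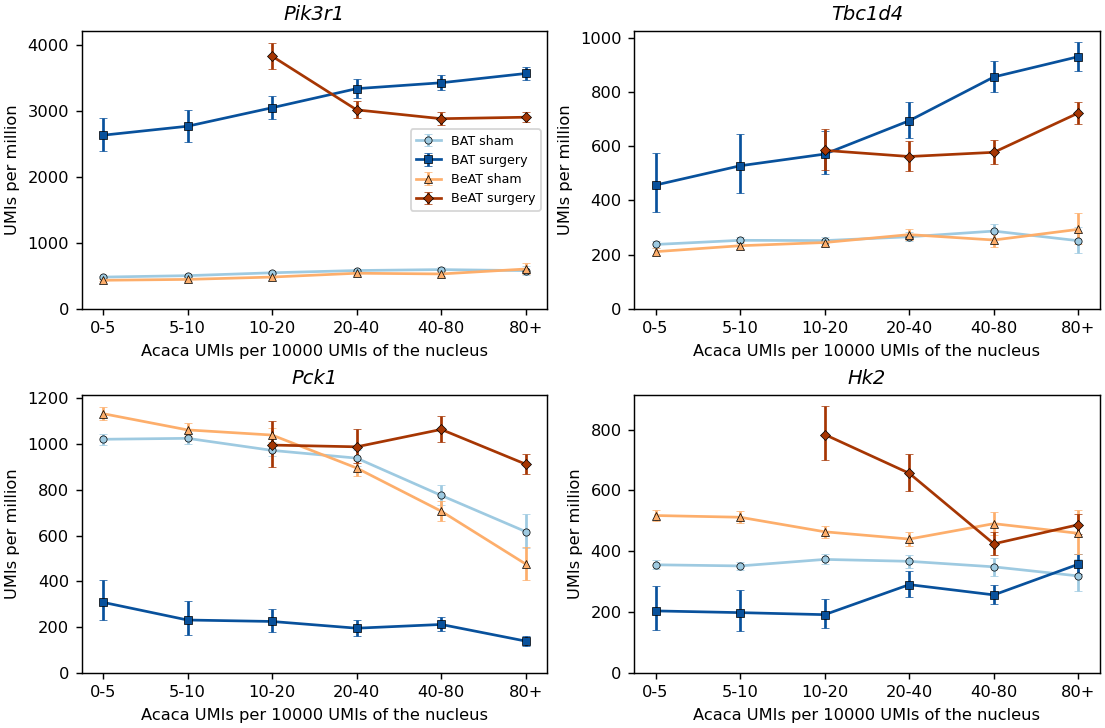
Pik3r1, Tbc1d4, Pck1 and Hk2 in adipocyte-like nuclei grouped by their Acaca level, in CPM with 95% counting intervals, 1 line per library and groups of under 20 nuclei left out. Pik3r1 runs between 432 and 602 in the sham lines and between 2632 and 3831 in the surgery lines, while Pck1 is lowest at the high end of Acaca in both shams, at 617 and 475.

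Finer groups of Acaca level showed the course of Pck1 and Tbc1d4. In the BeAT sham Pck1 stood at 1134 CPM in the 1427 nuclei with under 5 Acaca UMIs per 10000 and at 475 (407 to 552) in the 79 nuclei with 80 or more. The BAT sham went from 1022 to 617 (547 to 693) over the same range. BAT surgery went from 308 (229 to 406) in 40 nuclei to 138 (119 to 160) in 188 nuclei, below the lowest sham group throughout. BeAT surgery lay between 912 and 1065 in its 4 groups. Tbc1d4 went from 456 (358 to 573) to 930 (878 to 984) in BAT surgery and lay between 210 and 293 in the shams. Hk2 in BeAT surgery was at 784 (699 to 876) in the 48 nuclei with 10 to 20 Acaca UMIs per 10000 and at 487 (455 to 521) in the 188 with 80 or more.

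Outside the adipocytes free adipocyte RNA has to be read first. Adipoq, which endothelial cells should lack, stood at 486 and 605 CPM in endothelial-like nuclei of the BAT and BeAT shams but at 27.9 and 52.0 in BAT and BeAT surgery. Those levels are 84.5% and 74.2% of the adipocyte level in the shams and 8.62% and 17.8% in the surgery libraries. Slc2a4 in endothelial-like nuclei was at 31.9 and 27.8 CPM in the shams, at 2.15 in BAT surgery on 1 UMI, and had 0 UMIs in BeAT surgery, which allows up to 9.75 CPM. Pck1 there was at 198 and 280 CPM in the shams and at 2.15 and 32.5 after surgery. At Adipoq's ratio to adipocytes Slc2a4 would stand at 78.2 and 90.7 and Pck1 at 827 and 755 in the shams. These lie above the measured levels, so the levels of both genes are not read as expression. In the 416 skeletal muscle-like nuclei of the BAT sham, Slc2a4 stood at 129 CPM (109 to 151) and Hk2 at 379 (345 to 416), with Adipoq at 580. At Adipoq's ratio Slc2a4 would stand there at 93.4 and Hk2 at 362, the latter within the interval of the measured Hk2 level. In endothelial-like nuclei of the BAT sham that ratio would put Hk2 at 303, where 38.3 was measured. The ratio can thus overstate free RNA, and the part of it in the muscle-like Hk2 level was not tested. No other library had 50 skeletal muscle-like nuclei.

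Insr in endothelial-like nuclei, which carry insulin from the blood into the tissue, stood at 212 and 196 CPM in the BAT and BeAT shams and at 884 and 422 in BAT and BeAT surgery. The values rest on 431, 304, 412 and 130 UMIs. The ratios to sham were 4.17 (3.64 to 4.79) and 2.15 (1.74 to 2.65). With the span median of these nuclei taken off, the log2 ratio was 1.66 for BAT and 0.31 for BeAT, the latter below the rule. At Adipoq's ratio Insr would stand at 436 and 344 CPM in the shams, above what was measured, and at 50.4 and 110 after surgery. At the ratio of Gpx5 it would stand at 86.6 in BAT surgery. Levels by cluster were added after these values were seen. In cluster 20 Insr was at 349 and 327 CPM in the shams and 1554 and 697 after surgery, ratios of 4.45 (3.71 to 5.36) and 2.13 (1.59 to 2.86). In cluster 10 it was at 165 and 164 in the shams and 244 and 220 after surgery, ratios of 1.48 (1.09 to 1.98) and 1.34 (0.926 to 1.90). Cluster 20 made up 23.1% and 19.6% of the endothelial-like nuclei in the shams and 44.2% and 32.2% after surgery, on 37 nuclei in BeAT surgery. Which vessels the clusters come from was not tested.

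Foxo1 in T or NK-like nuclei was at 245 and 261 CPM in the BAT and BeAT shams, 313 in BAT surgery and 757 in BeAT surgery. BeAT surgery alone was high, at 2.90-fold (2.34 to 3.66) over its sham, and the BAT ratio was 1.28 (0.932 to 1.74). It was high in both T or NK-like clusters, by 2.49-fold (1.92 to 3.27) in cluster 6 and 3.31-fold (2.19 to 5.22) in cluster 21. This library also held 29.5% T or NK-like and 37.3% B cell-like nuclei, against at most 2.14% and 0.643% in the others, and the part of that make-up in the Foxo1 level was not tested. B cell-like nuclei held Foxo1 at 306 CPM (221 to 414) in the 63 nuclei of the BAT sham, 627 (485 to 798) in the 58 of the BeAT sham and 733 (711 to 756) in BeAT surgery. The BAT sham was the low library, at 0.488 (0.323 to 0.729) of the BeAT sham.

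Tbc1d4 in macrophage-like nuclei stood at 446 and 252 CPM in the BAT and BeAT shams and at 371 and 420 in BAT and BeAT surgery, where Adipoq's ratio would give at most 63.5. The 2 macrophage-like clusters differed. Cluster 4 held 499 and 366 CPM in the shams and 564 and 703 after surgery, and cluster 11 held 94.5 and 75.2 in the shams and 118 and 301 after surgery. The lower BAT class value after surgery, 371 against 446, thus stands beside within-cluster ratios above 1, of 1.13 (1.05 to 1.22) and 1.25 (0.910 to 1.74).

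Dendritic-like nuclei held Tbc1d4 at 173 and 402 CPM in the BAT and BeAT shams and at 261 and 907 in BAT and BeAT surgery. In BeAT surgery cluster 27 stood at 1343 CPM (1267 to 1421) in 173 nuclei, while cluster 24, which all libraries shared, was at 170 and 189 in the shams and 196 and 322 after surgery. Insr showed how much the class value owes to its clusters. It was at 150 CPM in dendritic-like nuclei of the BeAT sham and 420 in BeAT surgery, but within cluster 24 it was at 151 and 27.8, on 32 and 7 UMIs, and cluster 27 of BeAT surgery stood at 619. Irs2 reached 443 CPM (352 to 551) on 81 UMIs in the 97 plasma cell-like nuclei of BAT surgery, above its adipocyte level in every library. At the ratios of Adipoq and Gpx5 it would stand there at 9.72 and 12.7. Irs1 was at 0 to 70.9 CPM in macrophage-like, dendritic-like and T or NK-like nuclei, and at 241 to 275 in adipose progenitor-like nuclei of the 3 libraries with at least 50 of them.

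**Figure D5:**
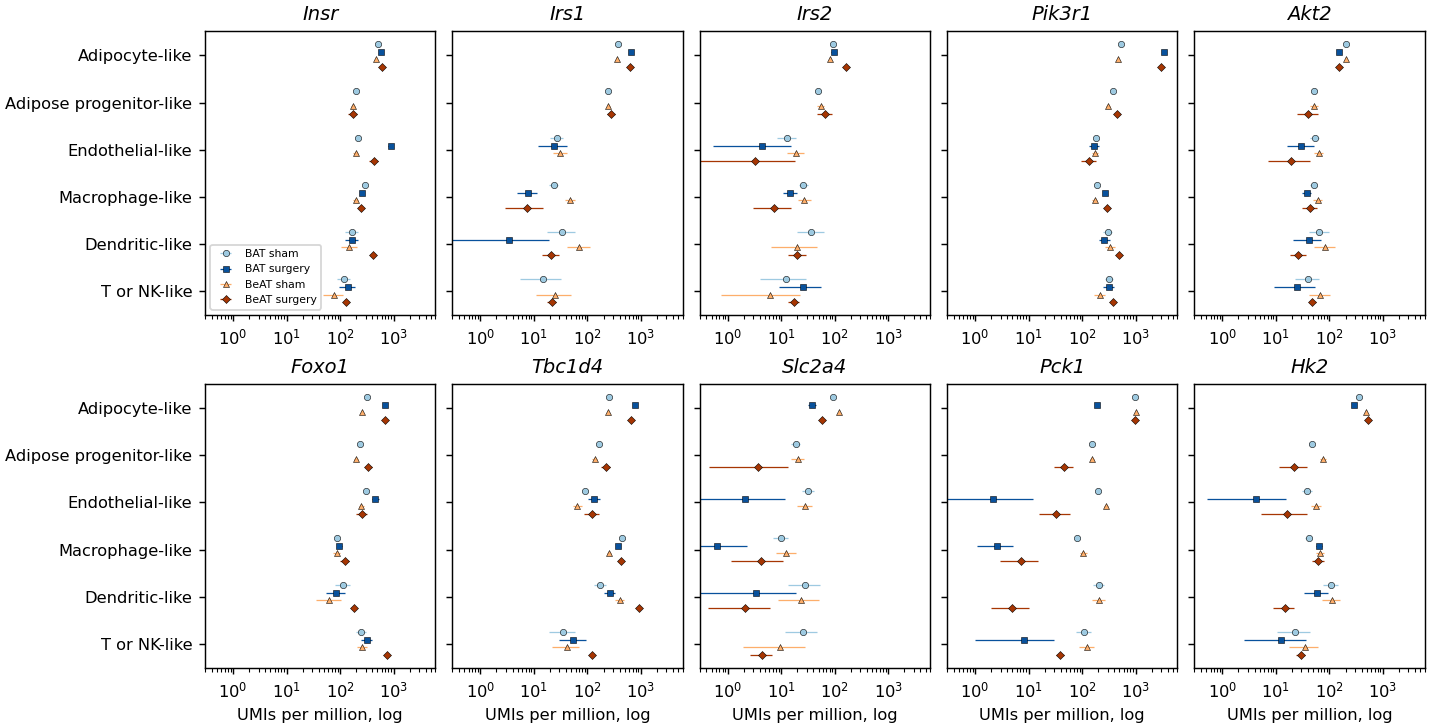
Level of each member by class of nuclei, in CPM on a log axis, with 1 symbol per library and 95% counting intervals as bars; values of 0 and classes of under 50 nuclei in a library are not drawn. Pik3r1 stands at 3355 and 3013 in adipocyte-like nuclei of the surgery libraries and between 133 and 489 in the 5 other classes drawn, which are the adipose progenitor, endothelial, macrophage, dendritic and T or NK-like nuclei.

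In no other class did Pik3r1 reach the adipocyte level of the surgery libraries, the highest value being 510 CPM in epithelial-like nuclei of the BAT sham. In macrophage-like nuclei it was at 190 and 172 CPM in the BAT and BeAT shams and at 269 and 295 in BAT and BeAT surgery. At Adipoq's ratio it would stand in macrophage-like nuclei at 132 and 108 in the shams and 112 and 150.1 after surgery, below each measured level. In endothelial-like nuclei it was at 182 and 174 in the shams and 170 and 133 after surgery. There Adipoq's ratio would give 442 and 350 in the shams and 289 and 536 after surgery, above what was measured. The same ratio would give Irs1 at 113 in endothelial-like nuclei of BeAT surgery, where 0 was measured, so it can overstate free RNA. The part of free RNA in the endothelial-like Pik3r1 levels was not tested. Hk2 had its highest level outside adipocyte-like and muscle-like nuclei in the epithelial-like nuclei of BAT surgery, at 162 CPM (158 to 166) in 5676 nuclei, where Adipoq's ratio would give 5.30. In the 57 epithelial-like nuclei of the BAT sham it was at 16.2 on 4 UMIs. Of the 57, 55 were in cluster 35, which held no BAT surgery nuclei. The epithelial-like values of BAT sham and BAT surgery thus rest on largely different clusters. Akt2 stood between 19.5 and 156 CPM outside the adipocytes. The difference between classes was not tested, as each group has 1 library.

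Over 34 sums of nuclei, class by library, the genes whose levels most resembled a member's were found by Pearson r among 10815 genes. For Pik3r1 they were Sik2 (0.84), Acaca (0.82) and Nabp1 (0.79), and for Foxo1 Tango6 (0.83), Pitpnm2 (0.80) and Cers4 (0.79). For Tbc1d4 they were Cpq (0.86), Tcp11l1 (0.79) and Gm12905 (0.79), and for Slc2a4 Ucp3 (0.94), Gm5627 (0.93) and Carmn (0.92). These values are descriptions, since the sums share libraries, depth and free RNA, and Sik2 is one of the adipocyte markers that named the class.

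Some lists of markers of other cells differed between the shams and the surgery libraries in the adipocyte-like nuclei, and others hardly did. The 6 B cell markers summed to 36.5 and 28.5 CPM in the BAT and BeAT shams and to 137 and 113 in BAT and BeAT surgery, with Ms4a1 and Cd79b at 0 in BAT surgery. The 8 skeletal muscle markers summed to 109 and 73.7 in the shams and 27.2 and 32.0 after surgery, with 6 of 8 at 0 in BAT surgery. The 10 endothelial markers summed to 64.6 and 64.8 in the shams and 9.98 and 59.3 after surgery, low in BAT surgery alone. The 7 pericyte markers summed to 178 and 236 in the shams and 179 and 266 after surgery. The 4 Schwann markers summed to 540 and 437 in the shams and 518 and 495 after surgery. Pik3r1 stood at 98.5 to 323 CPM in the B cell-like and plasma cell-like nuclei with at least 50 in a library. The part of RNA from other cells in the member levels was not tested.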

How the data were processed

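The tables hold UMI counts per gene and nucleus as deposited by the authors, 1 library per group. Libraries were made by a SeekGene protocol, per the labels' protocols, which describe a digested suspension of viable cells although the molecule is given as nuclear RNA. The genome build was mm10, and Seurat 4.4.0 and 4 were used, per the submitters' processing notes. The aligner and the counting program, with its use of introns and strand, were not given in the sources used here.

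Nuclei needed 500 UMIs, 300 genes and under 10% mitochondrial UMIs. Doublets were scored with the Scrublet method (scanpy 1.11.5) at an expected rate of 6%. Its own threshold was used for BAT surgery (783 removed) and BeAT surgery (621). In BAT sham and BeAT sham, where it marked under 0.5% or over 20%, the highest-scoring 6% were taken (625 and 623). Nuclei were clustered jointly without integration (2000 variable genes, 30 components, 15 neighbours, Leiden resolution 1). Of 36 clusters 6 stayed unnamed. A class name needed 3 markers and a 4-fold mean marker level, and hemoglobin genes did not bar an endothelial name; these limits were set after the clusters were seen. Counts were summed per class and library and divided by the class total, and ratios have exact conditional binomial intervals. The ratio and the counting rule were tested on simulated data. Low totals set the limits: 3 UMIs are the floor for a count of 0. Span medians come from 20 bins of genes by length (GENCODE M21, GRCm38, 32158 genes matched). Alternatives were other scaling, thinning, doublets kept, other folds, per-nucleus means, totals without epithelial and mitochondrial genes, the span trend, 1 cluster, the other sham and other Acaca limits.

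All 10 members were measured in each class of at least 50 nuclei, and 6 classes are plotted; the members described in the text outside adipocyte-like nuclei were chosen after their values were seen. Pathway genes are named where they passed 2-fold in the same direction in both pairs; other genes named were chosen after their values were seen, among them Igf1r, Hk1, Txnip, Ptprf, Pik3r2, Pik3r3 and Pik3ca. 1 item is not reported here. The members and lists were chosen with earlier results of these data known. The replicate libraries that a test would need are not among those analysed here.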

Additional observations from a re-analysis of the deposited data

Results flagged for a closer look

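Hk2 stood on opposite sides of sham under the tissue labels. Its log2 ratio of surgery to sham in adipocyte-like nuclei was -0.33 under the BAT labels and 0.11 under the BeAT labels, with both counting intervals excluding 0. Each direction rests on 1 library a group, and the difference between the labels was not tested. Against the sham library of the other label the values were -0.77 and 0.56, and within cluster 2 the BeAT value was -0.08. With the median of genes of like span taken off, the values were -0.50 and -0.01, on the same side of 0.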

How the results depend on the processing

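Of the 128 values that the alternatives gave for the counts of members, 121 stayed within 1.5 times the reported count and 7 did not. The 121 include counts of 0 that stayed at 0. They also include the values without a minimum of UMIs, which could not differ because all 10 members had at least 50 UMIs in each comparison. Members higher numbered 2 to 4 in BAT surgery against BAT sham and 3 to 5 in BeAT surgery against BeAT sham. Members lower went from 2 to 1 in the BAT comparison with the span trend taken off, since Slc2a4 then missed the rule. In the BeAT comparison members lower went from 1 to 0 with the mean of per-nucleus shares, with the span trend taken off, within cluster 2 and against BAT sham; the gene is again Slc2a4, at log2 values of -0.97, -0.32, -0.92 and -0.69. At 1.5-fold, 4 members were lower in BAT surgery than in BeAT surgery, and 2 were higher in Acaca-high nuclei of BAT surgery. Shares over all genes are not given at 1.5-fold or for the other alternatives, so their counts are not read as results about the members. Apart from the span trend and the looser fold, whose construction sets the count, the cause was not tested. No paired analysis was possible because each group holds 1 library. No adipocyte-like cluster held 50 nuclei in BAT surgery and in its partner, the limit of Acaca-high at 10 left too few low nuclei in BeAT surgery, and Acaca sets formed from whole clusters could be had in BAT surgery alone, so those alternatives were not run. Counting error limits Slc2a4 (135 UMIs in BAT surgery) and the Acaca-low sets of 127 and 76 nuclei in the surgery libraries.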
